A study of Mus musculus with 15 samples.

Results

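Cornified envelope and squamous differentiation genes were followed across mouse tumour spheres treated with inhibitors of the MET and Wnt pathways. The members were the 10 genes Ivl, Sprr1a, Sprr1b, Sprr3, Tgm1, Tgm3, Cnfn, Dsg3, Sbsn and Calml3, taken by name. Of these, 9 had a probe set that names them alone, out of 18193 genes measured that way. Together the 9 genes had 13 probe sets. Dsg3, a desmosomal cadherin of stratified epithelia, was not analysed here because no probe set of the annotation table used names it.

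Expression was measured on 15 Affymetrix arrays of mammospheres, the spheres that mammary cells form when they are kept from attaching. The cells came from primary tumours of the mammary gland of FVB/N mice with the genotype WAPCre-DNbcatn;HGF, which all groups share. The name of the Cre transgene carries WAP, the whey acidic protein gene of milk-producing cells, and HGF is the ligand of the MET receptor. Spheres were grown for 7 days and treated for a further 24 h, and 250 ng of RNA went onto each array. The first set of arrays (JAH in the titles) held 3 arrays of spheres given PHA, 3 given ICG and 3 given DMSO, the vehicle. The second set (JHO) held 3 arrays of spheres given PHA+ICG and 3 given DMSO. The labels give no doses and no full compound names. By general knowledge, PHA is the prefix of an inhibitor of the MET kinase, while ICG is that of a compound blocking transcription driven by β-catenin. Whether the replicates came from separate tumours or cultures is not given, so p-values cover the spread among these arrays alone, possibly technical in part, and the number of arrays limits the precision.

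Cells of stratified epithelia end their life by building a cornified envelope, a layer of cross-linked protein beneath the plasma membrane. Precursors such as involucrin and the small proline-rich proteins are laid down there and joined by transglutaminases, while desmosomes hold neighbouring cells together. The simple epithelium of the mammary gland does not normally build this layer, but mammary tumours and cultures can take on squamous features.

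Of the 9 measured members, 4 lie on chromosome 3 in the GRCm38.p6 build, within the 136983 bases of chr3:92436808-92573790. In order along the chromosome these are Sprr1b, Sprr3, Sprr1a and Ivl, all protein-coding. Cnfn and Sbsn lie on chromosome 7, Tgm3 on chromosome 2, Calml3 on chromosome 13 and Tgm1 on chromosome 14. RefSeq promoter windows of this build were at hand for 8 members. The 250 bases before the start are printed for the 6 that fell with PHA in the data below, Ivl, Sprr1a, Sprr1b, Sbsn, Tgm1 and Cnfn, and for Sprr3, which lies beside 3 of them on chromosome 3 and was called in no comparison. The windows are chr3:92573736-92573985 (Ivl), chr3:92485882-92486131 (Sprr1a), chr3:92438780-92439029 (Sprr1b), chr3:92458721-92458970 (Sprr3), chr14:55713493-55713742 (Tgm1) and chr7:25369725-25369974 (Cnfn), all on the minus strand, and chr7:30751221-30751470 (Sbsn) on the plus strand. RefSeq has a pair of windows for Tgm1, and the other, with no AP-1 match either, is not printed. Capitals mark TGANTCA, the binding motif of AP-1, the FOS and JUN family of transcription factors, searched on both strands. Each line reads 5′ to 3′ and ends at the base before the start.
Ivl: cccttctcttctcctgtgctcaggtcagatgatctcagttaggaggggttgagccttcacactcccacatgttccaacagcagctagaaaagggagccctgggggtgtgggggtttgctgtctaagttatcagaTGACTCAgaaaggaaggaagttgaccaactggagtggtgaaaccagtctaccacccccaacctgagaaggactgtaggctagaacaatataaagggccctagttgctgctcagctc
Sprr1a: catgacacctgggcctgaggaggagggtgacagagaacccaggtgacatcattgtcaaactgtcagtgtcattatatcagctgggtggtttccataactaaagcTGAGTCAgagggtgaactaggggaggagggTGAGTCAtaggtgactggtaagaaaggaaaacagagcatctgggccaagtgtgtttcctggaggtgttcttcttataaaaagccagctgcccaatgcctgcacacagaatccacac
Sprr1b: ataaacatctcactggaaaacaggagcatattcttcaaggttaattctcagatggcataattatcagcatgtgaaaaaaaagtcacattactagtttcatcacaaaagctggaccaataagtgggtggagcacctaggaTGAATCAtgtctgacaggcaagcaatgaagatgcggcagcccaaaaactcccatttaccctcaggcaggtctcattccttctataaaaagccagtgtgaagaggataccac
Sbsn: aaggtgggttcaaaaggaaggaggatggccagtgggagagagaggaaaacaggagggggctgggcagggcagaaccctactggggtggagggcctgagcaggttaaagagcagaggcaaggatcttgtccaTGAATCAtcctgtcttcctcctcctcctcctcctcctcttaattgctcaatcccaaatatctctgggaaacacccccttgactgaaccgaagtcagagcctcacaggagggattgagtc
Tgm1: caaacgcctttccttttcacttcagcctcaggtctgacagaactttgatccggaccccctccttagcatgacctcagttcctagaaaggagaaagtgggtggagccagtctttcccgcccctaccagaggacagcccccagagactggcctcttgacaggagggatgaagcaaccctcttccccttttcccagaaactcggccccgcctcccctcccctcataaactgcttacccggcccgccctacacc
Cnfn: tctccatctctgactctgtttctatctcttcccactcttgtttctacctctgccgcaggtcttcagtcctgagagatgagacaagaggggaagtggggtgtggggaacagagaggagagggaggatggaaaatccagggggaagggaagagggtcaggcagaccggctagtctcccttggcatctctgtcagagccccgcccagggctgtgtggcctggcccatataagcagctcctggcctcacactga
Sprr3: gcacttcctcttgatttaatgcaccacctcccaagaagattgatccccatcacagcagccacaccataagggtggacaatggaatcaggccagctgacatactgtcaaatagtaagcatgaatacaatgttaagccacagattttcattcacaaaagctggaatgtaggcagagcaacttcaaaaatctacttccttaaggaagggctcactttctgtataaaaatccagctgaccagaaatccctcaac
The AP-1 motif stood in the windows of 4 of 8 members, and in 6.75% of 32851 mouse promoter windows of this length. Its first base lay 116 bases before the start in Ivl, 116 and 146 in Sprr1a, 111 in Sprr1b and 119 in Sbsn. No match stood in the windows of Tgm1 and Cnfn, which fell with PHA too, or in those of Sprr3 and Tgm3, which says only that these letters are not in those bases. CACCC, bound by KLF factors, stood in 8 of 8 windows, against 52.0% of all windows. CTTTGA, bound by TCF and LEF factors, stood in 1 of 8, that of Tgm1 (1 of its 2 windows, the one printed), against 13.8% of all windows. A match is a description of the letters and was not tested as a site.

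Both arrays numbered 1 in the second set stood apart from their fellows in leukocyte markers, which touches every value from that set. The mean log2 value of 10 leukocyte markers was 8.93 on PHA+ICG array 1 against 7.22 and 7.14 on PHA+ICG arrays 2 and 3, and 10.04 on DMSO array 1 against 8.03 and 7.95 on DMSO arrays 2 and 3. Over all genes PHA+ICG array 1 correlated with PHA+ICG arrays 2 and 3 at 0.973 and 0.984 and with DMSO array 1 at 0.982, while DMSO array 1 correlated with DMSO arrays 2 and 3 at 0.979 and 0.981 and these with each other at 0.996. The median residual SD of a gene was 0.236 in the second set and 0.107 in the first, a ratio of 2.22, so each set was fitted with its own spread. Results from the second set are therefore also given with its arrays 2 and 3 only, an alternative chosen after the data were seen. The 8 epithelial markers, among them Epcam and Krt8, averaged 8.21 to 9.50 over the 15 arrays, and 8 luminal mammary markers 5.21 to 7.51. Probe signals carry no detection calls here, so the presence of a marker was not called. The log2 difference between the 3′ and 5′ control probes of Actb, a measure of RNA quality, was between 0.34 and 0.78 on all arrays.

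PHA against DMSO in the first set asked what a MET inhibitor alone did to these genes. Of the 9 measured members 6 fell with PHA and none rose at a limma Benjamini-Hochberg adjusted p under 0.05, where 7.07% of all 18193 genes fell and 3.14% rose. The members were chosen with earlier results of these data known, so this share describes them and is no test of the set. The 6 were the envelope precursors Ivl, Sprr1a and Sprr1b, the cross-linking enzyme Tgm1, and Cnfn and Sbsn, and they were between 1.47-fold (Tgm1) and 2.03-fold (Sprr1b) lower. In the same 6 genes the 3 PHA arrays lay below the 3 DMSO arrays, a separation that 16.2% of all genes showed. The median log2 change of the 9 members was -0.63, beside 0.02 for all genes. In bulk RNA, fewer cells of a type and less RNA per cell cannot be told apart.

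Among the precursors, Ivl encodes involucrin, an early scaffold of the envelope. Its log2 values were 8.94, 8.76 and 8.92 on the PHA arrays, against 9.58, 9.89 and 9.91 on the DMSO arrays. All PHA arrays were low and the groups did not overlap. The log2 fold change was -0.92 ± 0.17 (SE; 1.89-fold lower; limma adjusted p = 0.00824), and the other Ivl probe set gave -0.70 ± 0.13 (adjusted p = 0.0145 over all probe sets).

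Sprr1a and Sprr1b encode small proline-rich proteins that bridge other envelope proteins. Sprr1a had log2 values of 8.93, 8.72 and 9.03 with PHA, against 9.24, 10.18 and 10.07 with DMSO. Every PHA array was below every DMSO array, with DMSO array 1 the nearest. Its change was -0.94 ± 0.22 (1.91-fold lower; limma adjusted p = 0.0251). Sprr1b had 6.50, 6.26 and 7.11 with PHA, against 7.40, 8.12 and 7.43 with DMSO, and again the groups did not overlap. Its change was -1.02 ± 0.23 (2.03-fold lower; limma adjusted p = 0.0199). The probe sets of these paralogs may share signal, which was not tested. Sprr3, a small proline-rich protein best known from the lining of the oesophagus, had 5.95, 5.67 and 5.83 with PHA and 5.74, 5.82 and 5.85 with DMSO. Its groups overlapped, and the 95% confidence interval of its log2 change ran between -0.15 and 0.19.

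Tgm1 encodes the membrane-bound transglutaminase that cross-links envelope proteins. Its log2 values were 6.44, 6.37 and 6.30 on PHA arrays, against 6.87, 7.09 and 6.81 on DMSO arrays. The groups did not overlap, and the change was -0.55 ± 0.08 (limma adjusted p = 0.00239). Tgm3, a soluble transglutaminase of epidermis and hair follicle, had 5.95, 5.79 and 5.99 with PHA and 5.90, 5.79 and 5.88 with DMSO. These overlapped, and the interval of its change ran between -0.10 and 0.21.

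Cnfn encodes cornifelin, an envelope component of the outer layers. It had log2 values of 7.14, 7.00 and 7.28 with PHA, against 7.82, 8.20 and 8.11 with DMSO. The groups were clear of each other and the change was -0.90 ± 0.14 (1.87-fold lower; limma adjusted p = 0.0029). Sbsn encodes suprabasin, a secreted protein of suprabasal keratinocytes. Its values of 11.12, 11.06 and 11.05 with PHA lay close together, as did 11.66, 11.74 and 11.73 with DMSO. The change was -0.63 ± 0.06 (1.55-fold lower; limma adjusted p = 0.000193), and its other probe sets gave -0.65 ± 0.08 and -0.84 ± 0.15. Calml3, a calmodulin-like protein of epithelial cells, had 4.75, 4.77 and 4.39 with PHA and 4.80, 4.55 and 4.66 with DMSO, which overlapped, with an interval of -0.27 to 0.21.

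The calls of Ivl, Tgm1, Cnfn and Sbsn held in 14 of 15 alternatives each, while that of Sprr1a was lost in 6 and that of Sprr1b in 5. Sprr1a lost it without PHA array 1 (adjusted p = 0.0672), PHA array 2 (0.0923), DMSO array 2 (0.0862) or DMSO array 3 (0.0866) and Sprr1b without PHA array 1 (0.0705), PHA array 2 (0.0751) or DMSO array 2 (0.0549), and all 6 calls were lost where the wider spread of the second set was pooled with that of the first.

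**Figure D1:**
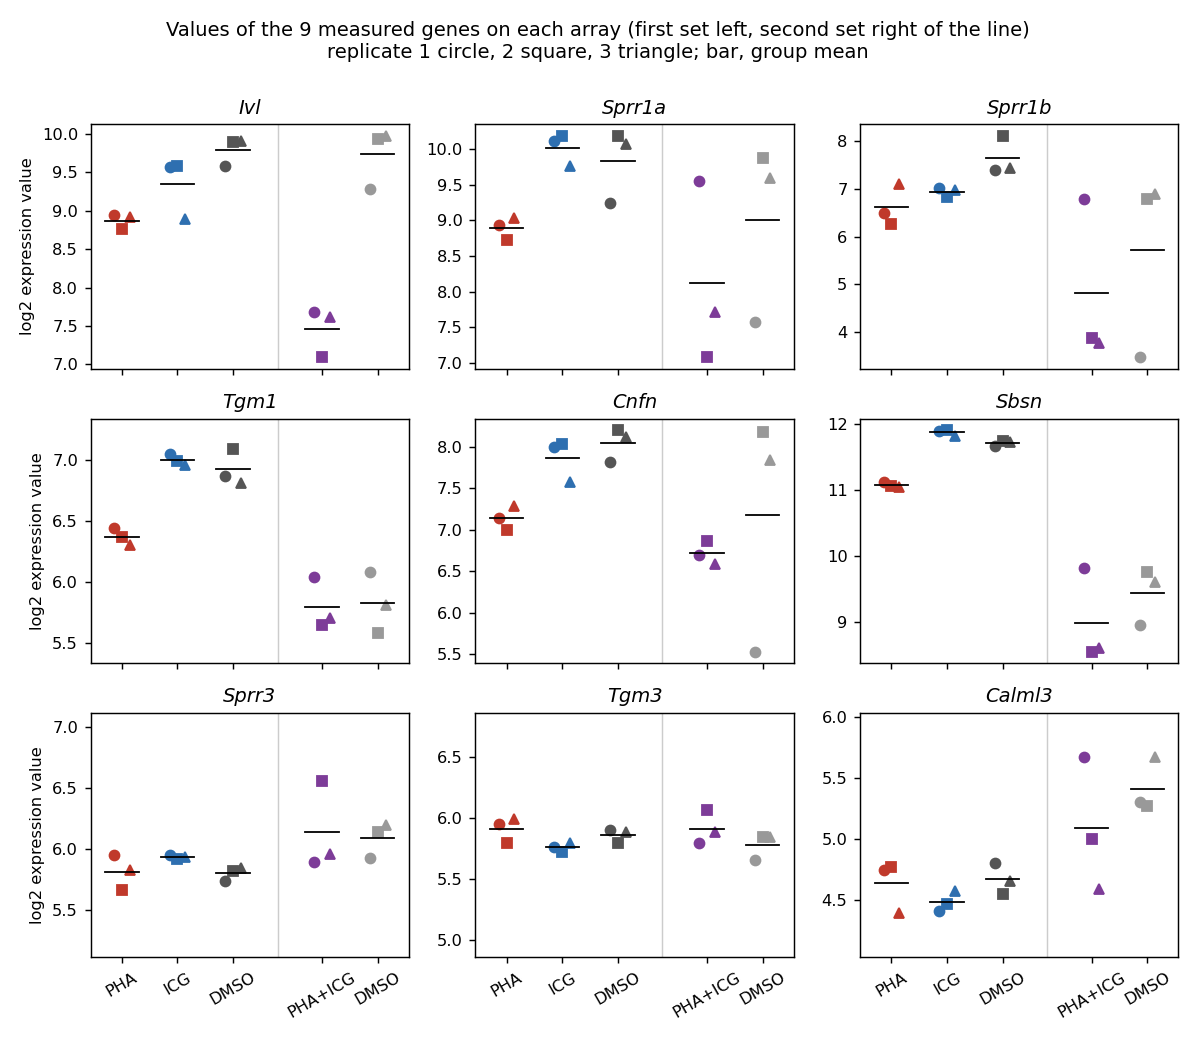
Log2 expression value (vertical axis) of the 9 measured genes on each of the 15 arrays, by group (horizontal axis), with replicates 1, 2 and 3 as circle, square and triangle and the group mean as a bar; the line parts the first set from the second. The 3 PHA arrays lie below the 3 DMSO arrays of their set in Ivl, Sprr1a, Sprr1b, Tgm1, Cnfn and Sbsn, and in the second set PHA+ICG array 1 and DMSO array 1 leave their groups in Sprr1a, Sprr1b and Sbsn.

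The wider squamous programme was read from 6 lists of genes that are not members, also chosen with earlier results of these data known. With PHA, genes of all 6 lists fell and none rose, where 7.07% of all genes fell and 3.14% rose. Among 34 envelope precursors 12 fell. Tchh, which encodes trichohyalin, fell by 1.70 ± 0.10 on the log2 scale (limma adjusted p = 2.05e-05). The late cornified envelope genes Lce1a1 (-1.36 ± 0.14) and Lce3f (-0.87 ± 0.11) and Krtdap (-0.71 ± 0.08), a keratinocyte differentiation-associated protein, also fell. Among 13 genes of desmosomes and corneodesmosomes 6 fell, led by Pkp1 (-0.56 ± 0.07), a plakophilin, the desmocollins Dsc1 (-1.49 ± 0.26) and Dsc2 (-0.35 ± 0.07), and Jup (-0.34 ± 0.07), which encodes plakoglobin. Dsc1 stood at low values, averaging 3.55 with PHA and 5.04 with DMSO. Its change ran between -1.83 and -0.81 over 14 alternatives.

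Of 20 cross-linking, protease and lipid enzymes 9 fell, beside 7.07% of all genes. Asprv1, a protease that cleaves filaggrin, was at -1.34 ± 0.09, the kallikreins Klk8 and Klk6 at -1.06 ± 0.11 and -1.08 ± 0.15, and Ugcg, a glucosylceramide synthase, at -0.57 ± 0.07. Of 21 regulators of squamous differentiation 6 fell, among them the transcription factor genes Grhl3 (-1.06 ± 0.08), Klf4 (-0.76 ± 0.06), Prdm1 (-0.94 ± 0.13) and Fos (-0.55 ± 0.07), the last of which encodes an AP-1 subunit. Grhl3 stood at low values, averaging 3.99 with PHA and 5.05 with DMSO. Keratins of stratified epithelia fell in 7 of 14 cases, with Krt17 at -1.62 ± 0.13, Krt6b at -0.99 ± 0.13, Krt6a at -0.75 ± 0.06 and Krt80 at -0.67 ± 0.09. The near-identical copies Krt6a and Krt6b may share signal. Of 13 suprabasal and secreted genes 6 fell, with Il1rn, the antagonist of the interleukin 1 receptor, at -1.70 ± 0.12, Ly6d at -1.36 ± 0.09, Lgals7, a galectin, at -1.16 ± 0.21 and Emp1 at -0.31 ± 0.06. The medians of the 6 lists were between -0.39 and -0.19, beside 0.02 for all genes. With 1 spread pooled over both sets the calls were 1 of 34, 0, 0, 2, 0 and 2 in the order given, and without PHA array 2 only 3 desmosome genes were called, Dsc2 not among them (adjusted p = 0.0542).

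On chromosome 3, 26 of the listed envelope precursors lie between 92080271 and 93564645, and 8 of these (30.8%) fell with PHA while none rose. Of all genes 7.07% fell and 3.14% rose. The 26 are part of the 34 precursors counted above, of which 35.3% fell, so their share is not a separate result.

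Markers of other cells moved as well, where 7.07% of all genes fell and 3.14% rose. Of 10 fibroblast markers 6 fell with PHA, and their mean was 9.97 to 10.12 on PHA arrays against 10.51 to 11.12 on DMSO arrays. Of 10 leukocyte markers 2 fell (10.33 to 10.49 with PHA, 10.52 to 10.99 with DMSO). Of 8 epithelial markers 3 rose, Cldn3, Cldn4 and Cldn7, and none fell, with means of 8.90 to 8.96 with PHA and 8.66 to 8.81 with DMSO. None of 8 luminal markers rose and 3 fell. The part of these cells in the fall of the members was not tested.

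ICG against DMSO in the first set asked the same of an inhibitor of β-catenin-driven transcription. With ICG 1 of 9 members was called, Sprr1b, where 15% of all genes fell and 11.9% rose, so the members' share stood near the background. Sprr1b had log2 values of 7.02, 6.84 and 6.98 with ICG, against 7.40, 8.12 and 7.43 with DMSO, with no overlap, as for 20.4% of all genes in that direction. Its change was -0.70 ± 0.23 (1.63-fold lower; limma adjusted p = 0.0455), but the call held in only 3 of 15 alternatives. It was lost without any of the 3 ICG arrays and without DMSO array 2 or 3.

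The other precursors did not pass the test. Ivl had 9.57, 9.58 and 8.89 with ICG, against 9.58, 9.89 and 9.91 with DMSO. ICG array 3 was low, ICG arrays 1 and 2 were near the lowest DMSO array, and the groups overlapped. The change was -0.45 ± 0.17 (limma adjusted p = 0.081; interval -0.83 to -0.07). Sprr1a had 10.11, 10.19 and 9.76 with ICG and 9.24, 10.18 and 10.07 with DMSO, a change of 0.19 ± 0.22 with overlapping groups.

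Sbsn was the member nearest to a rise. Its values were 11.89, 11.91 and 11.82 with ICG, against 11.66, 11.74 and 11.73 with DMSO. The ICG arrays lay above the DMSO arrays, as did 20.2% of all genes, and the change of 0.16 ± 0.06 missed the threshold (limma adjusted p = 0.0661). It passed in 4 of 15 alternatives, such as median centring of the arrays (0.23, adjusted p = 0.0153). Sprr3 was also above DMSO on every ICG array (5.95, 5.92 and 5.94 against 5.74, 5.82 and 5.85) without passing (limma adjusted p = 0.225). For Tgm1, at 7.05, 6.99 and 6.96 with ICG and 6.87, 7.09 and 6.81 with DMSO, the interval ran between -0.10 and 0.26. The intervals of Cnfn (-0.48 to 0.13), Tgm3 (-0.25 to 0.06) and Calml3 (-0.43 to 0.05) also included 0.

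The 6 lists had calls in both directions under ICG or, for keratins, in 1. Beside 11.9% of all genes higher and 15% lower, the shares were 8.82% each way for precursors, 7.69% for desmosome genes, 10% for enzymes and 14.3% for regulators, 35.7% lower and none higher for keratins, and 15.4% higher and 30.8% lower for suprabasal genes. The first 3 lists thus stood below the background in both directions. Of the envelope precursors 3 rose, Lce3f (0.83 ± 0.11), Lce3c (0.44 ± 0.07) and the protease inhibitor gene Cstb (0.33 ± 0.06), and 3 fell, Krtdap (-0.81 ± 0.08), Cst6 (-0.67 ± 0.13) and Sprr2h (-0.69 ± 0.14). Among desmosome genes Dsc2 rose (0.51 ± 0.07) and Dsp, which encodes desmoplakin, fell (-0.39 ± 0.07). Among enzymes Tgm2 and St14 rose and Cers3 and Ugcg fell. Of the regulators Cebpa (0.38 ± 0.09), Klf4 (0.25 ± 0.06) and Junb (0.28 ± 0.08) rose, while Grhl3 (-0.76 ± 0.08), Maf (-0.68 ± 0.13) and Fos (-0.25 ± 0.07) fell. Of 14 keratins 5 fell, including Krt6b (-0.65 ± 0.13), Krt14 (-0.35 ± 0.10) and Krt10 (-0.27 ± 0.08), and none rose. Of 13 suprabasal genes 2 rose, Serpinb2 and Gjb2, and 4 fell, with Il1rn at -1.77 ± 0.12. Of the 26 precursors on chromosome 3, 2 rose (7.69%) and 1 fell (3.85%). Several of these calls were lost in alternatives, that of St14 in 9 of 15, Ugcg and Krt10 in 8, Krt14 in 6, Gjb2 in 5 and Junb and Fos in 4, each without 1 or more single arrays of the first set among others.

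Other markers moved widely with ICG, where 15% of all genes fell and 11.9% rose. Of 8 markers of cycling cells 8 fell (means 5.34 to 5.86 with ICG, 7.55 to 8.47 with DMSO), as did 9 of 10 fibroblast markers (9.16 to 9.81 with ICG, 10.51 to 11.12 with DMSO) and 6 of 10 leukocyte markers. Their part in the values of the members was not tested.

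ICG and PHA arrays of the first set were also set against each other, since both were measured beside the same DMSO arrays. Relative to PHA, 4 of 9 members were higher with ICG and none lower, where 13.4% of all genes were higher and 13.7% lower. These were Sprr1a (1.13 ± 0.22, 2.18-fold, limma adjusted p = 0.0036), Sbsn (0.80 ± 0.06, adjusted p = 1.37e-05), Cnfn (0.73 ± 0.14, adjusted p = 0.00297) and Tgm1 (0.63 ± 0.08, adjusted p = 0.000325). In all 4 the ICG arrays lay above the PHA arrays, as did 20.8% of all genes. Ivl differed by 0.47 ± 0.17 (limma adjusted p = 0.0676), called without ICG array 3 (0.70, adjusted p = 0.00212), and Sprr1b by 0.32 ± 0.23 (adjusted p = 0.352). Of the listed precursors on chromosome 3, 9 of 26 were higher with ICG and none lower. Klf4 (1.01 ± 0.06), Asprv1 (1.50 ± 0.09), Krt17 (1.60 ± 0.13), Tchh (1.54 ± 0.10) and Lce3f (1.70 ± 0.11) were among the higher genes, and Dsp (-0.53 ± 0.07) and Maf (-0.64 ± 0.13) among the lower.

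**Figure D2:**
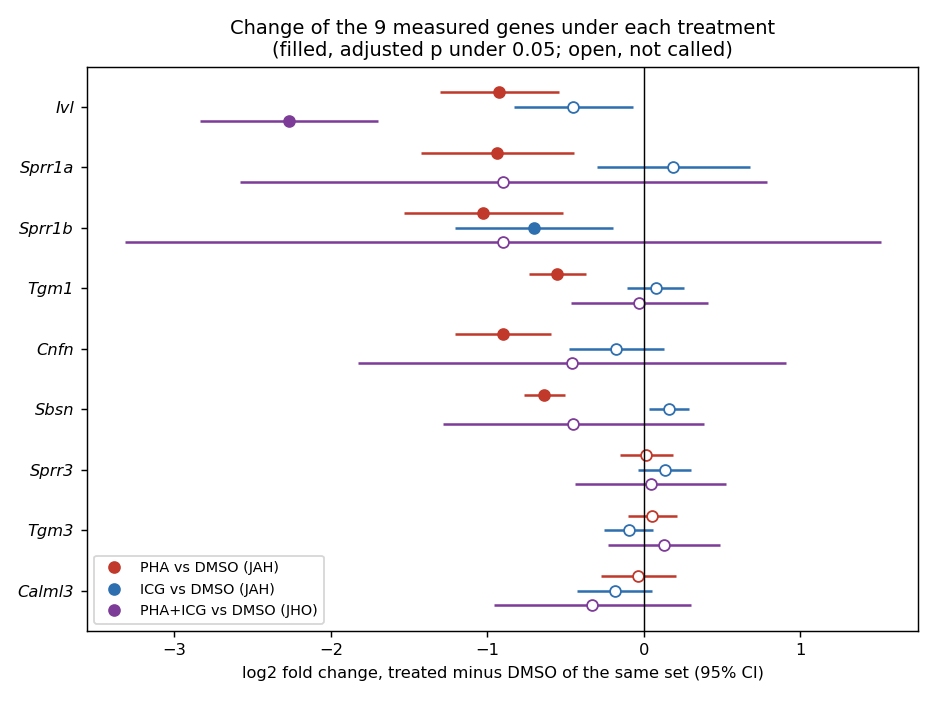
Log2 fold change of each measured gene (horizontal axis, treated minus DMSO of the same set) with its 95% confidence interval, for PHA, ICG and PHA+ICG; filled points passed an adjusted p of 0.05 and open points did not. PHA has 6 filled points, ICG has Sprr1b (-0.70) and PHA+ICG has Ivl (-2.27), whose interval is clear of 0.

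PHA+ICG against DMSO in the second set asked what both inhibitors did together. Of 9 members 1 fell, Ivl, and none rose, where 1.54% of all genes fell and 0.478% rose. Ivl had log2 values of 7.68, 7.09 and 7.62 with PHA+ICG, against 9.28, 9.94 and 9.98 with DMSO. All 3 treated arrays were low and the groups did not overlap, as for 11% of all genes in that direction. The change was -2.27 ± 0.25 (4.82-fold lower; limma adjusted p = 0.00745), and the other Ivl probe set gave -1.40 ± 0.26 (adjusted p = 0.0419 over all probe sets). The call of Ivl held in 16 of 16 alternatives, with changes between -2.60 and -1.83. With the replicate number as a block the number of genes called was 1442 instead of 368, and Ivl was still the 1 member among them.

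The other members turned on the arrays numbered 1. Sprr1a had 9.55, 7.08 and 7.72 with PHA+ICG, against 7.58, 9.87 and 9.59 with DMSO. PHA+ICG array 1 was at the height of DMSO arrays 2 and 3, and DMSO array 1 at the height of PHA+ICG arrays 2 and 3. The change over all arrays was -0.90 ± 0.73 (limma adjusted p = 0.746), and over arrays 2 and 3 only -2.33 (adjusted p = 0.00181).

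Sprr1b showed the same crossing, with 6.79, 3.88 and 3.77 with PHA+ICG against 3.47, 6.79 and 6.89 with DMSO. Its change was -0.90 ± 1.05 (limma adjusted p = 0.862) over all arrays and -3.01 (adjusted p = 0.000156) over arrays 2 and 3. Sbsn had 9.81, 8.54 and 8.60 with PHA+ICG against 8.95, 9.75 and 9.60 with DMSO, overlapping over all arrays (-0.45 ± 0.36, limma adjusted p = 0.741) and at -1.10 (adjusted p = 0.0119) over arrays 2 and 3. The other Sbsn probe sets gave -0.56 ± 0.33 and 0.09 ± 0.22 over all arrays, neither called.

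In Cnfn only DMSO array 1 stood away. Values were 6.70, 6.87 and 6.59 with PHA+ICG, against 5.53, 8.17 and 7.84 with DMSO. The change was -0.46 ± 0.60 (limma adjusted p = 0.883), -1.28 without DMSO array 1 (adjusted p = 0.0217) and -1.27 over arrays 2 and 3 (adjusted p = 0.0106). Arrays 2 and 3 alone thus called 5 of 9 members lower, with 886 of all 18193 genes called in either direction. The arrays numbered 1 that this leaves out are those where Sprr1a, Sprr1b, Sbsn and Cnfn were higher with PHA+ICG than with DMSO. Their removal favours a fall of these genes, so these p-values are no independent support.

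Tgm1, lower with PHA in the first set, had 6.04, 5.65 and 5.70 with PHA+ICG and 6.08, 5.58 and 5.81 with DMSO. Its groups overlapped, with an interval of -0.47 to 0.41. Sprr3 had 5.90, 6.56 and 5.96 with PHA+ICG and 5.93, 6.14 and 6.20 with DMSO, Tgm3 5.79, 6.06 and 5.88 with PHA+ICG and 5.65, 5.84 and 5.84 with DMSO. Calml3 had 5.67, 5.00 and 4.59 with PHA+ICG and 5.30, 5.27 and 5.67 with DMSO (-0.33 ± 0.27, limma adjusted p = 0.753). None of these 4 passed over arrays 2 and 3 either.

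Of 34 envelope precursors 4 fell with PHA+ICG, Lce3a (-1.74 ± 0.18, limma adjusted p = 0.00691), Crct1 (-1.29 ± 0.23), Lce3f (-1.40 ± 0.25) and Lce3c (-1.27 ± 0.26), and none rose. Of 14 keratins Krt6b fell (-2.33 ± 0.41, limma adjusted p = 0.0316). Of all genes 1.54% fell and 0.478% rose. Lce3a was called in 16 of 16 alternatives. Crct1, Lce3f and Lce3c lost the call in 7 of 16 each and Krt6b in 4 of 16, all 4 genes without PHA+ICG array 2 or 3 or DMSO array 2 or 3 of the second set (adjusted p up to 0.203 for Lce3c). No desmosome gene, enzyme, regulator or suprabasal gene was called. The lowest p among regulators had Prdm1 (-0.84 ± 0.20, adjusted p = 0.0841) and Fos (-1.21 ± 0.32, adjusted p = 0.115). With the replicate block the calls were 4 precursors, 2 keratins, 0 desmosome genes, 1 enzyme, 2 regulators and 4 suprabasal genes, all lower. The block called 1442 of all 18193 genes in either direction. Over arrays 2 and 3 the calls were 9, 5, 1, 6, 2 and 5 in the same order, all lower. There 886 of all genes were called in either direction. That choice of arrays was made after the values were seen, so these counts are no independent support. Of the 26 precursors on chromosome 3, Lce3a, Crct1, Lce3f and Lce3c were the only ones called over all arrays.

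Members and markers of other cells both differed from array to array in the second set. The mean of the 9 members was 7.10, 6.30 and 6.27 with PHA+ICG, against 6.42, 7.48 and 7.49 with DMSO. Luminal markers averaged 6.31, 5.49 and 5.37 with PHA+ICG against 7.51, 6.35 and 6.37 with DMSO, and epithelial markers 9.50, 8.30 and 8.21 against 9.43, 9.21 and 9.18. In both groups array 1 was the highest in these markers and in leukocyte markers, but it was the highest of the PHA+ICG arrays and the lowest of the DMSO arrays in the member mean. Of 8 markers of cycling cells 6 fell with PHA+ICG and of 10 fibroblast markers 1, while no leukocyte, luminal or epithelial marker was called. Of all genes 1.54% fell and 0.478% rose. With the replicate block 7 cycling, 4 fibroblast, 6 leukocyte, 4 luminal and 2 epithelial markers fell, with 1442 of all genes called in either direction. The means of leukocyte and luminal markers, and of fibroblast markers (11.58, 11.28 and 11.33 with PHA+ICG, 12.21, 12 and 11.95 with DMSO), were lower with PHA+ICG in all 3 pairs of arrays with the same number. The 3′ to 5′ difference of Gapdh was 0.44, 0.69 and 0.08 with PHA+ICG, against 0.13, 0.14 and 0.27 with DMSO. The part of these differences in the members' values was not tested.

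**Figure D3:**
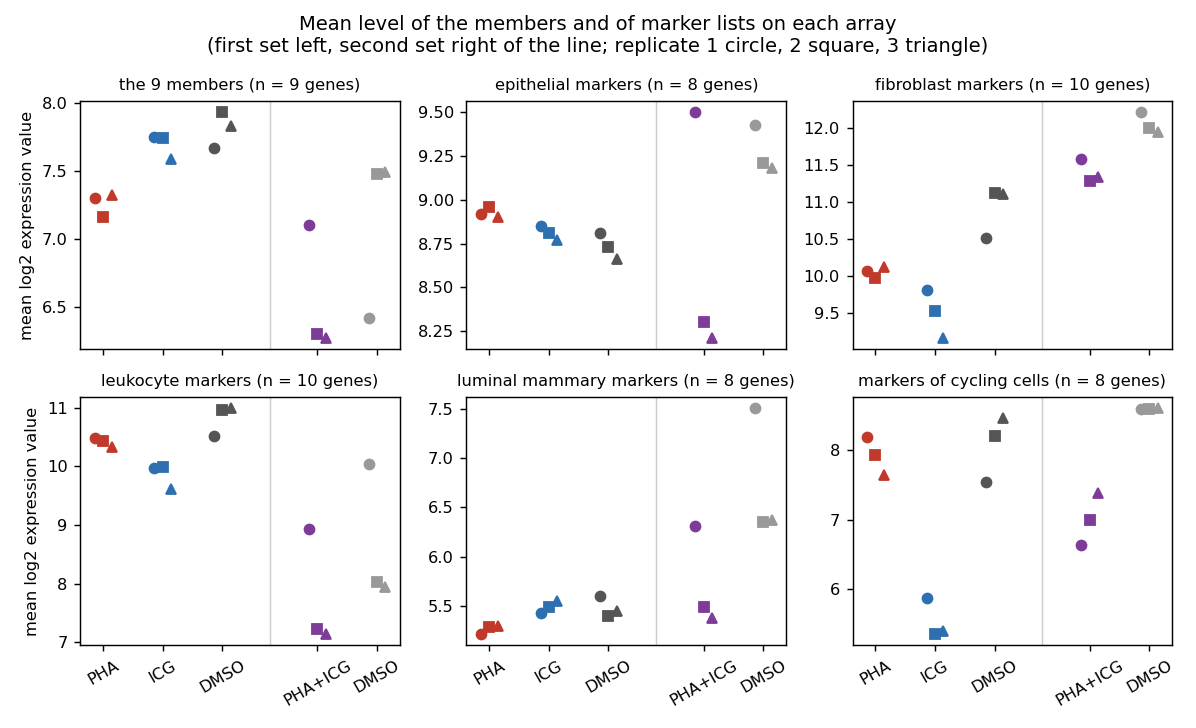
Mean log2 expression value (vertical axis) of the 9 members and of 5 marker lists on each array, by group (horizontal axis), with replicates 1, 2 and 3 as circle, square and triangle and the line between the sets. In the second set array 1 is the highest of both groups for leukocyte markers (8.93 with PHA+ICG, 10.04 with DMSO), while for the members it is the highest PHA+ICG array (7.10) and the lowest DMSO array (6.42).

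Effects of both inhibitors together and of 1 alone were compared as a difference, each against the DMSO arrays of its own set, in 1 fit over 15 arrays. The single inhibitors were in the first set only and PHA+ICG in the second only. A second inhibitor and the set therefore cannot be told apart in these differences. Against the effect of ICG 0 of 9 members differed, with 0.385% of all genes called, and 1 of 9, Ivl, had an unadjusted p under 0.05, as did 7.07% of all genes. Ivl was nearest, at -1.82 ± 0.41 (limma adjusted p = 0.0762). Its other probe set gave -1.08 ± 0.31 (limma adjusted p = 0.268 over all probe sets). Ivl passed in 5 of 21 alternatives, among them the replicate block (adjusted p = 0.0401), second-set arrays 2 and 3 only (-2.16, adjusted p = 0.0261) and the fit without ICG array 3 (adjusted p = 0.00863). Over arrays 2 and 3, a choice made with the values seen, Sprr1a (-2.52, adjusted p = 0.0389) and Sbsn (-1.27, adjusted p = 0.00209) passed too. Over all arrays the other Sbsn probe sets differed by -0.68 and -0.025. Against the effect of PHA 0 of 9 members differed, where 2.74% of all genes were called, and 2 of 9, Ivl and Tgm1, had an unadjusted p under 0.05, as did 13.7% of all genes. There Ivl was at -1.35 ± 0.41 (limma adjusted p = 0.0986; -1.68 and adjusted p = 0.0457 over arrays 2 and 3) and Tgm1 at 0.53 ± 0.22 (adjusted p = 0.268). The other Ivl probe set gave -0.70 ± 0.31 (limma adjusted p = 0.387 over all probe sets).

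Genes of the lists did differ, though here too the second inhibitor cannot be told apart from the set. The PHA+ICG effect was below the ICG effect in Lce3a, Lce3f, Lce3c and Crct1, which fell with PHA+ICG while Lce3f and Lce3c rose with ICG and Lce3a (0.09) and Crct1 (0.03) were not called there. The log2 differences were -1.83 ± 0.23, -2.23 ± 0.30, -1.71 ± 0.24 and -1.32 ± 0.25 (limma adjusted p between 0.00449 and 0.0313). Without DMSO array 3 of the second set none of these 4 passed. Against PHA, Lce3a (-1.62 ± 0.23), Lce3c (-1.09 ± 0.24) and Crct1 (-1.03 ± 0.25) also had the lower effect with PHA+ICG, and none of these 3 was called with PHA (-0.12, -0.18 and -0.25). Tchh (2.05 ± 0.36, limma adjusted p = 0.00612), Grhl3 (0.91 ± 0.21) and Klf4 (1.05 ± 0.26), which fell with PHA, differed in the other direction. The Grhl3 difference was 0.67 (adjusted p = 0.0936) over second-set arrays 2 and 3. Lce3a and Tchh passed in 21 of 21 alternatives, whereas Crct1 lost the call in 10, Klf4 in 11 and Lce3c in 4 of 21, and Grhl3 in 6 of 20, each of these also without DMSO array 2 or 3 of the second set. In the second set Tchh averaged 6.26 with PHA+ICG and 5.91 with DMSO, in the first 6.95 with PHA and 8.65 with DMSO, so its levels in DMSO spheres also differed between the sets. In the same order Grhl3, a gene of low values, averaged 3.72, 3.87, 3.99 and 5.05, and Klf4 9.93, 9.65, 9.8 and 10.57. Tchh, Grhl3 and Klf4 were thus lower in second-set DMSO spheres than in first-set PHA spheres. The part of this lower start in their differences was not tested.

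**Figure D4:**
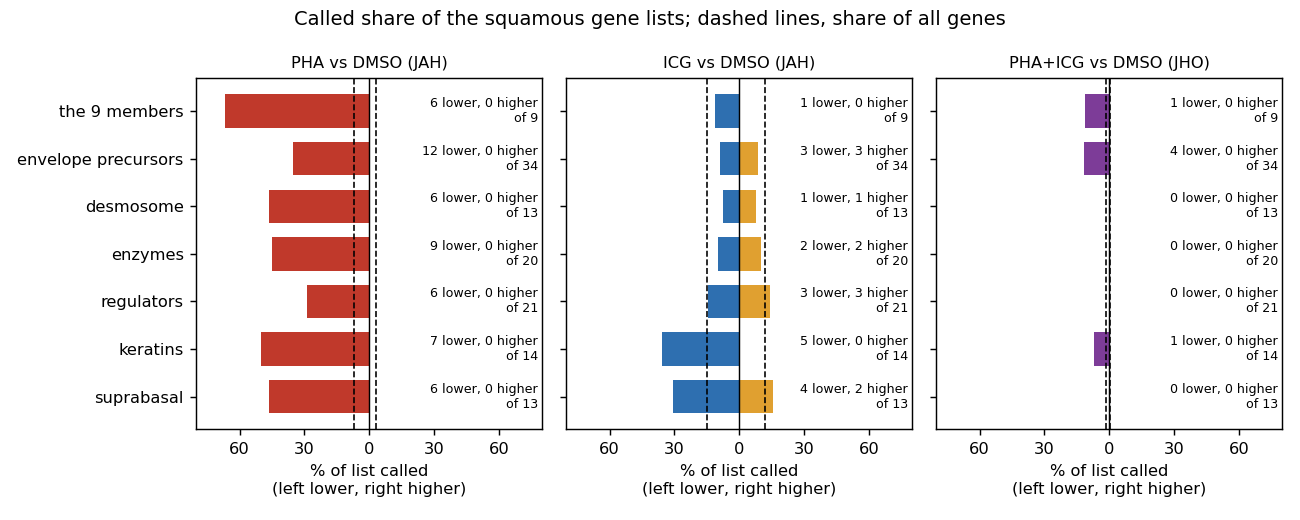
Percent of each gene list called lower (left of 0) and higher (right of 0) with PHA, ICG and PHA+ICG (panels), with dashed lines for the percent of all genes called in that direction. With PHA 66.7% of the members and 28.6% to 50.0% of the other lists were called lower, against 7.07% of all genes, and none higher. Members and lists were chosen with earlier results of these data known.

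The DMSO arrays of the sets differed in the members, and set and group cannot be told apart there. Whether both sets were normalized together is not given in the sources used here, which limits every level set across them. Of 9 members 2 were lower in DMSO spheres of the second set than of the first and 1 was higher, with 11.8% of all genes lower and 11.8% higher. Sbsn was at -2.28 ± 0.22 (4.84-fold lower; limma adjusted p = 1.5e-06), Tgm1 at -1.10 ± 0.15 (adjusted p = 6.73e-05) and Calml3 at 0.74 ± 0.22 (adjusted p = 0.0198). Calml3 lost its call without DMSO array 2 (adjusted p = 0.0704) or 3 (0.188) of the second set. Sprr1b (-1.93 ± 0.68, limma adjusted p = 0.0516) did not pass. Ivl had 9.73 ± 0.39 in the second set and 9.79 ± 0.19 in the first (SD, n = 3 each; interval of the difference -0.67 to 0.55). Klk6 (-3.64 ± 0.48), Klk7 (-3.50 ± 0.46) and Krt17 (-3.19 ± 0.35) were also lower in the second set, while Cst6 (2.60 ± 0.36) was higher.

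Across the study's 5 groups Ivl was ordered, from low to high mean, PHA+ICG (7.47 ± 0.33), PHA (8.87 ± 0.10), ICG (9.34 ± 0.40), DMSO of the second set (9.73 ± 0.39) and DMSO of the first (9.79 ± 0.19; SD, n = 3). ICG overlapped both of its neighbours above, and PHA overlapped ICG. On the Ivl probe set used, PHA+ICG lay clear of all other groups. On the other Ivl probe set PHA+ICG (6.31, 6.98 and 6.46) overlapped PHA (7.14, 6.85 and 7.03). There DMSO of the second set was above DMSO of the first, by 0.27 ± 0.22 (SE). Tgm3 and Sprr3 had the smallest SD of the members over the 15 arrays, at 0.106 and 0.213, with log2 values of 5.65 to 6.06 and 5.67 to 6.56, and Calml3 ranged over 4.39 to 5.67.

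The search for genes most like the members covered those outside the lists with a mean log2 value of at least 5. Each array was taken minus the mean of the DMSO arrays of its set. The genes whose pattern was most like the mean of the members were chosen by Pearson correlation over the 15 arrays. They were Kprp (0.938), Phactr4 (0.909), S100a9 (0.908), Cela1 (0.90), S100a14 (0.895), Ntan1 (0.893), Fgd6 (0.891) and Cd44 (0.888). The arrays share their set and the crossing of the arrays numbered 1, so these values describe likeness only. Of the 8 genes, Kprp (-0.52, limma adjusted p = 0.0157), S100a9 (-0.84, adjusted p = 0.000307), Cela1 (-0.74, adjusted p = 0.000218), S100a14 (-0.65, adjusted p = 0.00797) and Fgd6 (-0.32, adjusted p = 0.0242) fell with PHA, as did 7.07% of all genes. The member mean they were matched to was itself low on the PHA arrays (-0.506, -0.653 and -0.485). Their choice thus favoured a fall with PHA, and these p-values are no independent support. Cela1 was called lower with ICG too (-0.34, limma adjusted p = 0.00472), and none of the 8 passed with PHA+ICG.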

How the data were processed

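Values of 45101 probe sets were deposited, on the log2 scale as their range shows. The submitters' processing notes name MAS5 and RMA without versions or roles. Whether both sets were normalized together is not given in the sources used here. The platform annotation gave 1 gene for 34945 probe sets, several for 932 (left out) and none here for 9160, besides 64 controls. For the 9010 genes with more than 1 probe set, that with the highest mean was used, giving 18193 genes. No filter on low values was applied to the main fits. The search for genes most like the members was limited to genes with a mean log2 value of at least 5.

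Each set was fitted alone with limma 3.58.1 (R 4.3.3), with 6 residual degrees of freedom for the first set and 4 for the second. Differences between the sets used 1 fit of 15 arrays with an array weight per set. A gene counted as called where its p-value, adjusted by Benjamini-Hochberg over all genes of a comparison, was under 0.05, and ± is the SE unless SD is stated. The fits within a set were run on simulated data, and those across sets were not. Recovery of the direction of change was required for the first set only. Arrays were grouped by treatment and title code. The members and lists were chosen with earlier results of these data known. Of each list up to 4 called genes per direction with the lowest adjusted p were eligible to be named, and the 2 of lowest p where none was called.

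Deviations from group means of same-numbered arrays correlated at -0.262 to 0.117 in the first set and at 0.614, 0.363 and 0.277 in the second. The number entered as a block in an alternative only, and no main fit was paired. What a number shares is not stated. Of the member list Dsg3, and of the 6 squamous lists 13 genes such as Flg2 and Sprr2a1, had no probe set naming them alone here. Promoter windows are RefSeq's for GRCm38.p6. Python 3.11.15 with pandas 2.3.3, numpy 2.4.6 and matplotlib 3.10.9 made tables and figures.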

Additional observations from a re-analysis of the deposited data

How the results depend on the processing

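The direction and call of each of the 9 members were recomputed under 12 to 21 alternatives per comparison. With 1 spread pooled over 15 arrays, PHA called 182 genes and 0 members, ICG 1255 and 0, ICG against PHA 1463 and 1, PHA+ICG 2413 genes, and the PHA+ICG effect 160 genes and 1 member against ICG and 860 genes and 1 member against PHA. With array weights per set PHA+ICG called 641 genes. With every probe set on its own ICG called 7451 and 0 members, ICG against PHA 7803, PHA+ICG 563, the difference from ICG 130 and 1 member, that from PHA 848 and DMSO between sets 9726. Limited to genes with a mean of at least 5, ICG called 2 members and the difference from ICG 42 genes, and a trended and robust prior called 107 there. The replicate block called 1202 genes for PHA, 1442 for PHA+ICG, 197 and 1 member for the difference from ICG and 958 for that from PHA, and 0 members for ICG. What arrays with the same number share is not stated. The block changed no other member's call. Second-set arrays 2 and 3 only called 886 genes and 5 members for PHA+ICG, 242 and 3 for the difference from ICG and 1 member for that from PHA. The cause of these moves was not tested beyond the fewer arrays or other features each setting holds.

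Leaving out each array in turn gave 1005 to 1691 genes called and 4 to 6 members for PHA, 0 to 1 member for ICG, 56 to 389 genes and 1 to 2 members for PHA+ICG, 1 to 144 genes and 0 to 1 member for the difference from ICG, 149 to 719 genes for that from PHA, and 2442 to 4191 for DMSO between sets. The lowest counts of PHA+ICG and of both differences came without DMSO array 3 of the second set. Signs turned only for changes that were not called. For PHA these were Calml3 (-0.10 to 0.089 leaving out arrays; 0.024 with median centring) and Sprr3 (-0.050 to 0.091), and for ICG Sprr1a (-0.10 to 0.37). For PHA+ICG they were Tgm1 (-0.15 to 0.10; 0.0091 with quantile normalization and 0.058 with median centring), Sprr3 (-0.16 to 0.17) and Cnfn (-1.28 to 0.035). For the difference from ICG they were Sprr3 (-0.30 to 0.030), Sprr1b (-1.32 to 0.39), Calml3 (-0.43 to 0.10), Tgm1 (-0.23 to 0.025) and Cnfn (-1.11 to 0.21). For that from PHA they were Sprr1b (-0.999 to 0.71; -0.048 with quantile normalization and -1.99 with arrays 2 and 3), Tgm3 (-0.00048 to 0.13; -0.076 with the mean of its probe sets), Sprr1a (-0.68 to 0.56; -1.40 with arrays 2 and 3), Sbsn (-0.23 to 0.41; -0.47), Sprr3 (-0.18 to 0.15) and Cnfn (-0.38 to 0.94; -0.37), with Elovl4 at -0.0935 with arrays 2 and 3. For DMSO between sets Ivl turned (-0.18 to 0.17; 0.11 with the mean of its probe sets). Depth does not apply to arrays, and no detection call was at hand to set a lower limit.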

Other observations

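The squamous lists also differed between the DMSO spheres of the 2 sets, in a comparison in which set and group cannot be told apart. Of 34 envelope precursors 5 were higher and 8 lower in the second set than in the first, where 11.8% of all genes were called in each direction. Anxa1 (1.12 ± 0.15), Lce3a (1.10 ± 0.17) and Ppl (0.79 ± 0.22), which encodes periplakin and lost its call without DMSO array 1 or 2 of the second set, were higher, and Tchh (-2.74 ± 0.25) and Lce1d (-2.89 ± 0.44) lower, all in log2 units ± SE. Of 20 enzymes 1 was higher and 7 lower, with Spink5, a protease inhibitor of the epidermis, at -2.75 ± 0.37. Of 21 regulators 1 was higher and 6 lower, with Prdm1 at -2.59 ± 0.22 and Cebpa at -1.77 ± 0.18. Of 14 keratins 5 were lower and none higher, with Krt16 at -2.28 ± 0.39. In the same comparison 8 of 10 leukocyte markers were lower and 6 of 10 fibroblast markers higher, and their part in these values was not tested.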
